A study of Rattus norvegicus with 6 samples.

Results

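The miR-17~92 and miR-106b~25 clusters are related microRNA (miRNA) polycistrons, in which several precursor hairpins are cut from a single transcript. Their members were taken by name from the deposited counts: rno-miR-17-5p, rno-miR-18a-5p, rno-miR-19a-3p, rno-miR-20a-5p, rno-miR-19b-3p and rno-miR-92a-3p for miR-17~92, and rno-miR-106b-5p, rno-miR-106b-3p, rno-miR-93-5p and rno-miR-25-3p for miR-106b~25. The rat prefix rno is left out below. This gave 10 of the 649 mature miRNAs listed. Small RNA was sequenced from primary cortical neurons of Sprague-Dawley rat embryos at E18, grown for 7 days in vitro (DIV) by the labels and then stimulated for 20 min with 100 ng/ml brain-derived neurotrophic factor (BDNF) or with the vehicle, 0.1% BSA. The sources disagree on the culture age by 1 day, and the labels were followed. Each condition had 3 libraries, described in the methods as biological replicates. According to the methods, cortical cultures of both conditions also received the anti-mitotic fluorodeoxyuridine with uridine against dividing non-neuronal cells.

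The miR-17~92 cluster lies in the host transcript Mir17hg and is known as a target of the Myc and E2F transcription factors that promotes proliferation, including that of neural progenitors. The miR-106b~25 cluster sits inside Mcm7, a gene for a subunit of the replicative DNA helicase. A miRNA recognises its mRNA targets mainly through the seed, a short run near its 5′ end, so that miRNAs with the same seed share many predicted targets, whichever cluster they come from. BDNF is a neurotrophin that signals through the TrkB receptor and promotes dendrite growth.

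The mature sequences show how closely the members are related, and RefSeq held all 10 of them on the GRCr8 build. They are given 5′ to 3′, with the seed, bases 2 to 8, in capitals.
miR-17-5p: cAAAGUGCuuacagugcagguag
miR-20a-5p: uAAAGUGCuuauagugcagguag
miR-93-5p: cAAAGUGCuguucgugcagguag
miR-106b-5p: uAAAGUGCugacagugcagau
miR-18a-5p: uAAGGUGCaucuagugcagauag
miR-19a-3p: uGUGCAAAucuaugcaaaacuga
miR-19b-3p: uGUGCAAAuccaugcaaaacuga
miR-92a-3p: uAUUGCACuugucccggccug
miR-25-3p: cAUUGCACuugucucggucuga
miR-106b-3p: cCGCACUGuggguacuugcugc

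The 10 members carried 5 different seeds. MiR-17-5p and miR-20a-5p from miR-17~92 shared theirs with miR-93-5p and miR-106b-5p from miR-106b~25, and miR-92a-3p shared its seed with miR-25-3p. Outside the seed, miR-17-5p and miR-20a-5p differed at 2 bases, C1U and C12U, counted from the 5′ end with the base of the first-named miRNA first. MiR-92a-3p and miR-25-3p differed at 3 of the 21 bases compared, U1C, C14U and C18U. MiR-19a-3p and miR-19b-3p differed at a single base, U11C, which is within the 1 mismatch that the authors' assignment of reads allowed. The other pairs with a common seed among the members and their relatives differed at 2 or more bases. How reads that match several miRNAs were assigned is not given in the sources used here, so the levels of miR-19a-3p and miR-19b-3p are uncertain against each other.

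In the reference table the miR-17~92 mature sequences spanned 762 bases, chr15:98587861-98588622 on the plus strand, with 6 hairpins in the order miR-17, miR-18a, miR-19a, miR-20a, miR-19b-1 and miR-92a-1. Those of miR-106b~25 spanned 472 bases, chr12:22156652-22157123 on the minus strand, in the order miR-106b, miR-93 and miR-25, and all 3 hairpins lay within the span annotated for Mcm7. The X-linked polycistron of the family, from Mir106a to Mir363, was found at chrX:137342788-137343637 on the minus strand. It contains a further copy of 3 members: the mature sequences of miR-17-5p, miR-19b-3p and miR-92a-3p were each listed at 2 loci, on chromosome 15 and on the X chromosome. Reads of these 3 miRNAs cannot be assigned to a locus by sequence. The other 7 members each had 1 locus.

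The 6 libraries contained between 10374120 and 12533029 counts. Levels are given as RPM, the reads of a miRNA scaled to a library total of 1000000 counts. As a read covers a whole miRNA, RPM are not divided by length. Levels of different miRNAs also carry the sequence bias of adapter ligation, which was not measured here. The 7 neuronal miRNAs used as markers, among them miR-124-3p and miR-9a-5p, summed to between 337131 and 413707 RPM, of which miR-9a-5p, also known from neural progenitors and astrocytes, made up 249572 to 331060 RPM. The sums for markers of other cells were lower. Astrocyte and microglial markers summed to 5589 to 7497 RPM, nearly all of it miR-21-5p. Singly, miR-9a-5p and miR-128-3p exceeded miR-21-5p in every library. MiR-124-3p, at 4785 to 5879 RPM, did so only in control replicate 3, and the remaining neuronal markers lay below miR-21-5p in every library. The 5 blood markers listed were at 390 to 493 RPM, nearly all of it miR-486. Endothelial and mural markers were at 133 to 204 RPM and oligodendrocyte markers at 7.71 to 12.05 RPM. For each of these lists the control and BDNF ranges overlapped. In such bulk samples, fewer cells of a type and less RNA per cell cannot be told apart.

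All 10 members were detected in every library, with at least 507 counts each, and together they made up 1.49 to 1.98% of all counts. The most abundant was miR-20a-5p, at 3915, 4217 and 4739 RPM in control replicates 1 to 3 and 3594, 4247 and 4235 RPM in the BDNF replicates. MiR-92a-3p followed with 3542, 3600 and 4499 RPM in control and 3266, 3748 and 4410 RPM in BDNF libraries. Their order held in 5 of 6 libraries and was turned in BDNF replicate 3, with a mean ratio of 1.09, so these neighbours did not separate beyond their spread. MiR-25-3p was at 3097, 3371 and 3603 RPM in control and 3174, 3294 and 3505 RPM after BDNF. It thus lay below miR-92a-3p in 6 of 6 libraries, although by a mean ratio of only 1.14.

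MiR-17-5p measured 2123, 2539 and 3051 RPM in control and 1995, 2351 and 2617 RPM in BDNF libraries. MiR-93-5p, its seed relative from the other cluster, had 1525, 1876 and 2240 RPM in control and 1506, 1688 and 1850 RPM in BDNF libraries. The ratio of miR-17-5p to miR-93-5p was 1.37 and stayed between 1.32 and 1.42 over the 6 libraries, the narrowest range among neighbours in the order. In both conditions, the library numbered 1 held the least of each and the library numbered 3 the most.

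A step of about 3-fold separated these 5 miRNAs from the rest, since miR-93-5p exceeded miR-19b-3p by a mean ratio of 3.01. MiR-19b-3p was at 584, 641 and 629 RPM in control and 516, 550 and 602 RPM after BDNF. MiR-106b-3p measured 389, 366 and 430 RPM in control and 356, 370 and 448 RPM in BDNF libraries, and miR-106b-5p 395, 392 and 418 RPM in control and 346, 377 and 345 RPM in BDNF libraries. These arms of the same hairpin could not be ordered, as miR-106b-3p was the higher in 3 of 6 libraries. The lowest members were miR-19a-3p and miR-18a-5p. MiR-19a-3p was at 127, 118 and 105 RPM in control and 117, 114 and 110 RPM in BDNF libraries, and it exceeded miR-18a-5p in every library. MiR-18a-5p had 50.2, 56.2 and 52.5 RPM in control and 43.4, 50.5 and 50.8 RPM in BDNF libraries. Among all 649 miRNAs, the mean levels ranked from place 29 for miR-20a-5p to place 229 for miR-18a-5p.

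**Figure D1:**
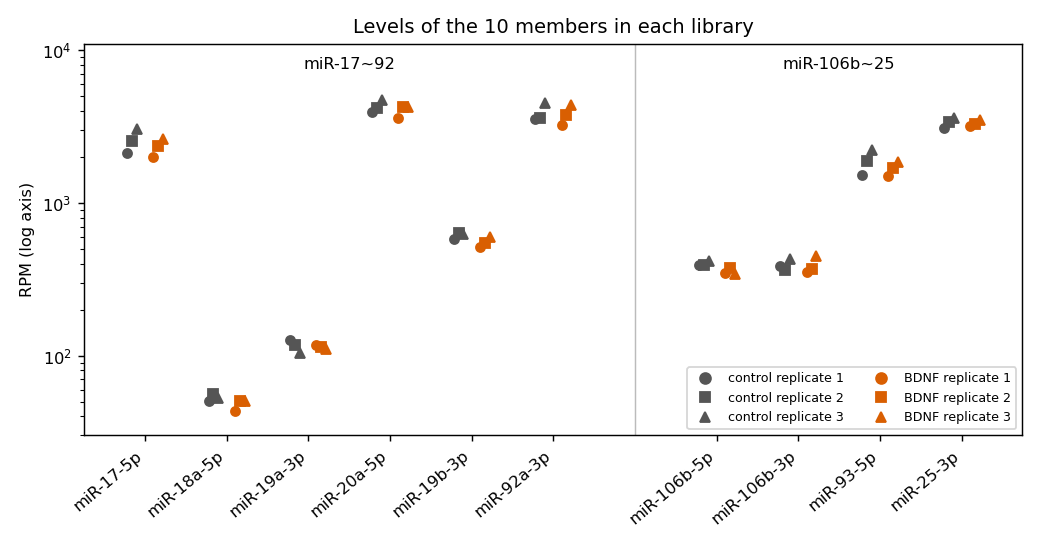
RPM of the 10 members (log axis) in each of the 6 libraries, with control libraries in grey, BDNF libraries in orange and the symbol giving the replicate number. Levels within miR-17~92 run from 43.4 RPM for miR-18a-5p to 4739 RPM for miR-20a-5p, whereas each member's control and BDNF points lie close together.

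Members of the same primary transcript therefore differed widely in mature level. Within miR-17~92, the highest member exceeded the lowest 81.1 ± 8.0-fold in control libraries and 84.6 ± 2.0-fold in BDNF libraries (SD, n = 3 each), and the lowest was miR-18a-5p in all 6. Within miR-106b~25, the corresponding factor was 8.60 ± 0.62 in control and 9.41 ± 0.67 in BDNF libraries (SD, n = 3 each). Expressed as the SD of log2 RPM over the members, the spread was 2.72 in control and 2.73 in BDNF libraries for miR-17~92, where the median SD of a member over replicates was 0.11. For miR-106b~25 it was 1.57 and 1.59, against a median replicate SD of 0.06. Neither spread differed detectably between conditions (exact two-sided permutation tests, p = 0.9 and p = 1). With 3 libraries against 3, such a test cannot give a p below 0.1.

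Levels were also set against the order of the hairpins. In miR-17~92 they did not run in 1 direction along the transcript, since miR-18a-5p and miR-19a-3p, the lowest members, came from the hairpins directly between those of miR-17-5p and miR-20a-5p, which were among the highest. MiR-17-5p, miR-19b-3p and miR-92a-3p can also come from the X-linked copies. The members with a single locus, miR-18a-5p, miR-19a-3p and miR-20a-5p, were ordered from lowest to highest along it, with mean levels of 50.6, 115 and 4158 RPM over the 6 libraries. This rise did not continue at the next hairpin, as miR-19b-3p had a mean of only 587 RPM, with any X-linked reads included. In miR-106b~25 the levels were higher for later hairpins. They went from 379 RPM for miR-106b-5p and 393 RPM for miR-106b-3p to 1781 RPM for miR-93-5p and 3341 RPM for miR-25-3p.

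The levels of the members were also summed by cluster. The 6 miR-17~92 members summed to 11529 ± 1402 RPM in control and 10872 ± 1257 RPM in BDNF libraries (SD, n = 3 each). This sum includes miR-17-5p, miR-19b-3p and miR-92a-3p, whose reads can also come from the X-linked copies. Without these, it was 4460 ± 407 RPM in control and 4187 ± 375 RPM in BDNF libraries. How much of the full sum comes from miR-17~92 itself is therefore not known. The 4 miR-106b~25 members summed to 6034 ± 643 RPM in control and 5754 ± 384 RPM in BDNF libraries. The ratio of miR-106b~25 to miR-17~92 was 0.523, 0.538 and 0.512 in the control libraries and 0.565, 0.518 and 0.511 in the BDNF libraries. On the log2 scale, this ratio differed between conditions by 0.02 (exact two-sided permutation test, p = 0.9).

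Because both clusters give miRNAs with the same seed, their contributions were also compared within seed families. Families were formed from the 583 listed miRNAs whose mature sequence was in the reference table. The miR-17 family, with the seed AAAGUGC, summed to 9183 ± 1254 RPM in control and 8421 ± 843 RPM in BDNF libraries (SD, n = 3 each). MiR-17-5p and miR-20a-5p accounted for 74.2 to 75.8% of this sum, and miR-93-5p and miR-106b-5p for 23.7 to 25.3%. The only relative outside both clusters, miR-20b-5p from the X-linked polycistron, added 0.422 to 0.461%. Its sequence is given for comparison with that of miR-20a-5p.
miR-20b-5p: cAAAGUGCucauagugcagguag

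MiR-20b-5p differed from miR-20a-5p at U1C and U10C, and its level was 31.9 to 45.6 RPM. MiR-20a-5p was between 101 and 116 times as abundant. Because the assignment allowed 1 mismatch and the trimming of end bases, a miR-20a-5p read without its first base and with a mismatch at the other position could have been counted as miR-20b-5p. How many of the miR-20b-5p counts arose in this way was not tested.

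The miR-25/92 family, with the seed AUUGCAC, was divided more evenly. It summed to 7692 ± 753 RPM in control and 7586 ± 742 RPM in BDNF libraries (SD, n = 3 each). MiR-92a-3p, whose reads can also come from its X-linked copy, gave 47.2 to 52.6% of the sum and miR-25-3p 41.8 to 45.9%. MiR-92b-3p, miR-363-3p and miR-32-5p, which come from other loci, together gave 5.27 to 7.21%. Of these, miR-92b-3p was at 254 to 351 RPM and miR-363-3p at 117 to 145.5 RPM. MiR-32-5p ranged from 10.7 to 34.2 RPM and was the most variable of the seed relatives, with a coefficient of variation of normalized RPM of 59.8% in control libraries. MiR-18a-5p, the miR-19 pair and miR-106b-3p had no seed relative outside the clusters among these 583 miRNAs.

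**Figure D2:**
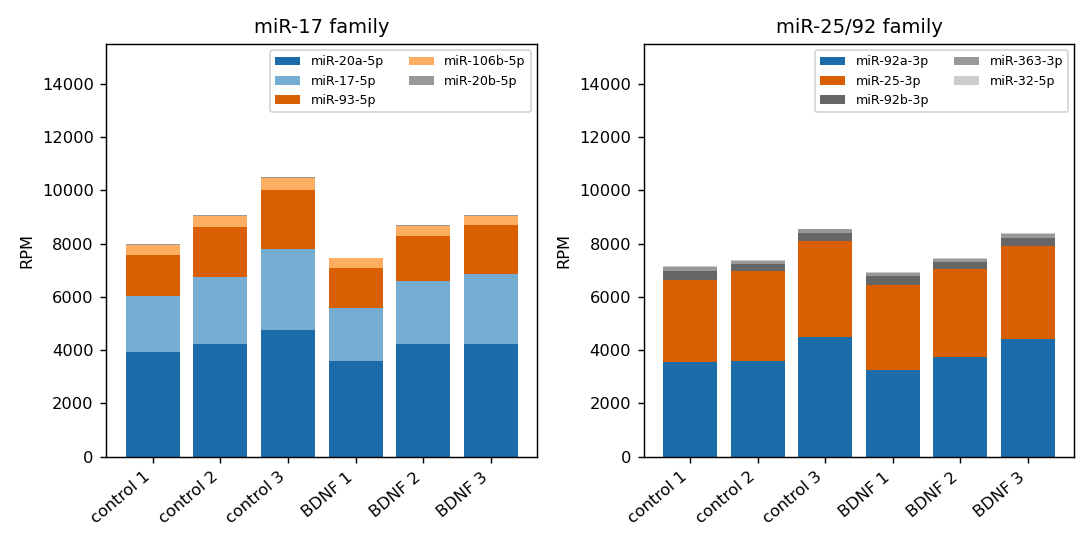
Stacked RPM of the miR-17 family (left) and the miR-25/92 family (right) in each library, with miR-17~92 members in blue, miR-106b~25 members in orange and relatives from other loci in grey. Blue makes up 74.2 to 75.8% of each left bar and 47.2 to 52.6% of each right bar. Reads of miR-17-5p and miR-92a-3p, shown in blue, can also come from X-linked copies.

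Each hairpin can give a miRNA from its 5′ arm and one from its 3′ arm, of which commonly one, the guide, is retained. The arms not among the members were therefore examined. For 5 hairpins the minor arm was close to absent: it made up 0.03% of the counts of both arms for miR-20a, 0.06% for miR-19a, 0.08% for miR-92a, 0.13% for miR-19b and 0.16% for miR-25. For miR-92a and miR-19b, the 3p counts can include the X-linked copies. Their 5p counts are from the chromosome 15 hairpins alone, as the X-linked 5p arms were not listed. MiR-19a-5p was found with 1 count in 5 libraries and 0 counts in BDNF replicate 1, which allows up to 0.257 RPM there when 3 counts are taken as the limit. The minor arm was more frequent for miR-17 and miR-93, at 1.77% and 1.73%, and for miR-18a, at 15.9%. For miR-17, the counts of each arm include the X-linked copy. MiR-106b alone gave both arms at nearly equal levels, the 5p arm being 49.0% of the total. The retained arm was 5p for miR-17, miR-18a, miR-20a and miR-93, and 3p for miR-19a, miR-19b, miR-92a and miR-25. Cluster members with a common seed thus came from the same arm. Of their relatives outside the clusters, miR-32-5p shared its seed with 3p arms.

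**Figure D3:**
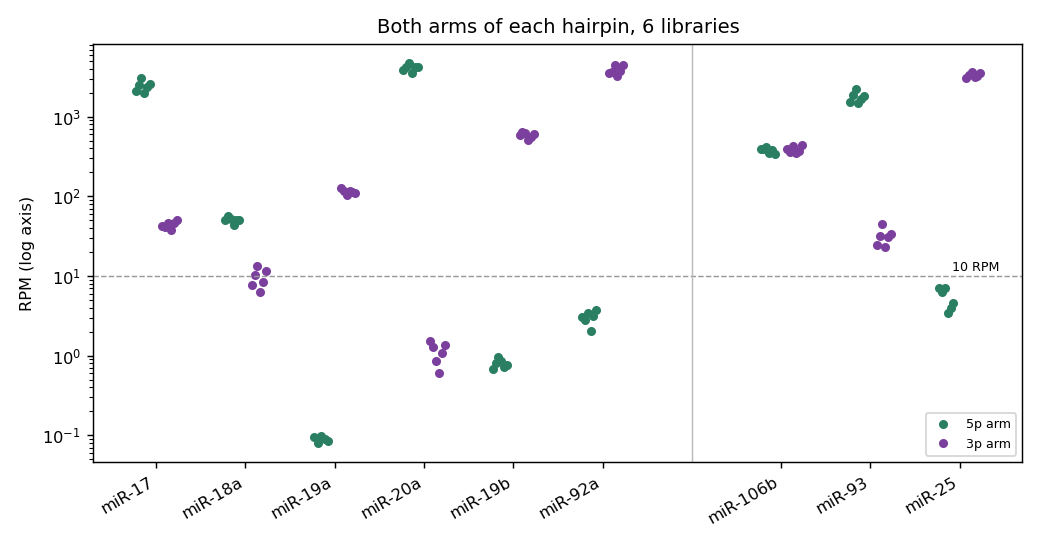
RPM of the 5p arm (green) and 3p arm (purple) of each hairpin on a log axis, 1 point per library, with the 10 RPM filter as a dashed line and the miR-19a-5p count of 0 in BDNF replicate 1 left out. The arms of miR-106b overlap, whereas the miR-20a arms lie more than 3 decades apart. Points of miR-17, miR-19b and miR-92a can include reads of X-linked copies.

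The 5p/3p ratio of miR-106b was 1.02, 1.07 and 0.97 in control replicates 1 to 3 and 0.97, 1.02 and 0.77 in BDNF replicates 1 to 3. It was lower after BDNF in 3 of 3 pairs with the same replicate number, and the values of both conditions overlapped. Among the 83 precursors with both arms past 10 RPM, limma gave a log2 difference of -0.16 (SE 0.14) with a Benjamini-Hochberg adjusted p of 0.956. Without BDNF replicate 3, the difference was -0.03, so its size rested largely on this library.

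The 3p arms of miR-17 differ between the copies and therefore name their locus. MiR-17-1-3p comes from chr15:98587898-98587919 (plus strand) and miR-17-2-3p from the X-linked hairpin at chrX:137343579-137343601 (minus strand), where RefSeq names the hairpin Mir106a. They differ at 6 of 22 bases compared.
miR-17-1-3p: aCUGCAGUgaaggcacuugugg
miR-17-2-3p: aCUGCACUgcaagcacuucuuac

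MiR-17-1-3p had 203, 291 and 272 counts in control and 196, 241 and 302 counts in BDNF libraries. MiR-17-2-3p had 238, 225 and 206 counts in control and 252, 279 and 303 counts in BDNF libraries. The X-linked arm was thus about as frequent as the chromosome 15 arm, with 46.9 ± 6.1% of the miR-17 3p counts in control and 53.3 ± 3.1% in BDNF libraries (SD, n = 3 each). This stands beside the ratio of at least 101 between the counts assigned to miR-20a-5p and miR-20b-5p, which come from the same clusters. How far the retention of each 3p arm sets these counts was not tested.

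The comparison of BDNF with control asks whether a short stimulation altered the mature levels. All 10 members passed the filter of a mean of 10 RPM in either condition and were tested with the other miRNAs, 336 in all, by edgeR's quasi-likelihood test on the counts. None of the 10 members had a Benjamini-Hochberg adjusted p below 0.05, and 0.0% of all tested miRNAs did. At an unadjusted p below 0.05, again 0 members were called, against 2.98% of all tested miRNAs. With the replicate number as a block, 0 members and 20.5% of all tested miRNAs had an unadjusted p below 0.05, and adjusted calls remained at 0.0%.

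The fold changes of the members were small. They ranged from -0.15 (SE 0.11) for miR-106b-5p to 0.01 (SE 0.09) for miR-25-3p on the log2 scale, and all adjusted p-values were 0.999 in edgeR's quasi-likelihood test. Over all members, the 95% intervals reached from -0.45 to 0.36, and with the block from -0.32 to 0.17. MiR-92a-3p had a log2 fold change of -0.01 (95% interval -0.26 to 0.24), miR-20a-5p of -0.07 (-0.31 to 0.17) and miR-17-5p of -0.13 (-0.43 to 0.18). With the block, the intervals of the same libraries were narrower. They were -0.15 to 0.14 for miR-92a-3p, -0.22 to 0.08 for miR-20a-5p and -0.28 to 0.04 for miR-17-5p. Changes within the interval of a fit are not excluded by that fit.

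**Figure D4:**
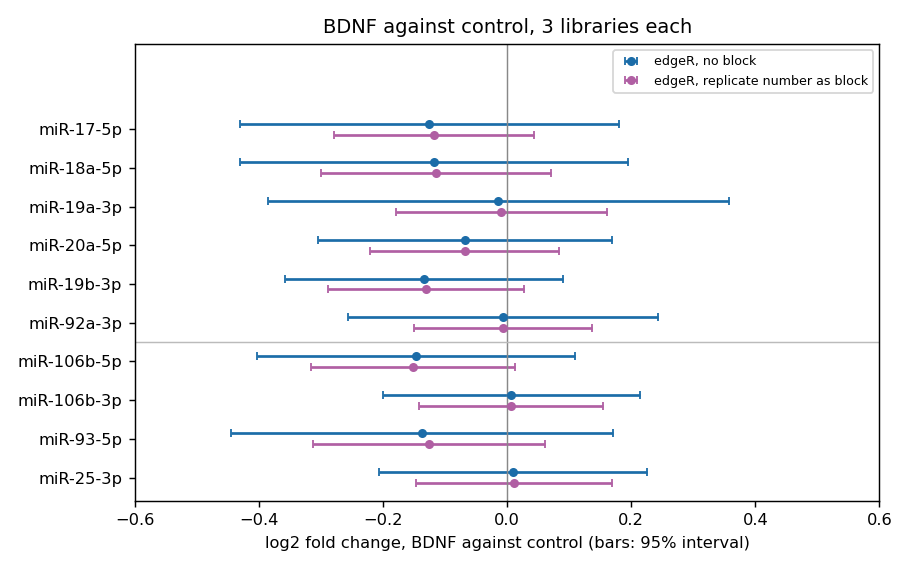
Log2 fold change of each member, BDNF against control, with 95% intervals from edgeR without (blue) and with (purple) the replicate number as a block, 3 libraries per condition. Every interval includes 0, and the fold changes lie between -0.15 and 0.01.

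More members lay below 0 than above. The log2 fold change was negative for 8 of the 10 members, compared with 50.9% of all tested miRNAs, and its median was -0.09 over the members and 0.00 over all tested. Pairs with the same replicate number showed lower normalized RPM after BDNF in 3 of 3 pairs for 4 members, miR-18a-5p, miR-20a-5p, miR-19b-3p and miR-106b-5p, against 23.8% of all tested miRNAs. The list depended on the scaling: by library size alone it held 5 members, without miR-20a-5p and with miR-17-5p and miR-93-5p, against 30.1% of all tested miRNAs. No member was higher in all 3 pairs under either scaling, against 16.1% of all tested miRNAs with normalized RPM and 9.23% by library size alone. Members of a cluster share a transcript and are not independent, and the sign for miR-19a-3p and miR-92a-3p turned with upper-quartile normalization. With library size alone, miR-106b-3p and miR-25-3p were below 0 as well.

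In normalized RPM, miR-19b-3p was the only member whose conditions did not overlap. Its values, divided also by the TMM factor, were 588, 671 and 582 in control and 557, 567 and 555 in BDNF libraries. All BDNF libraries were hence below all control libraries, as for 3.57% of all tested miRNAs. In RPM by library size alone, the miR-19b-3p conditions overlapped, and miR-106b-5p was instead the only member with all BDNF below all control libraries, as for 4.46% of all tested miRNAs. The log2 fold change of miR-19b-3p was -0.13 (SE 0.09), with an unadjusted p of 0.20 in edgeR's quasi-likelihood test. MiR-106b-5p had the smallest p of the members in the fit with the block, at 0.066, with an adjusted p of 0.276.

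The cluster totals did not separate either. The summed normalized RPM of miR-17~92 differed by -0.06 on the log2 scale (exact two-sided permutation test, p = 0.5) and was lower after BDNF in 3 of 3 pairs. That of miR-106b~25 differed by -0.04 (exact permutation test, p = 0.6) and was lower in 2 of 3 pairs. These tests do not use the pairs. An exact test that flips the signs of the 3 pair differences gave p = 0.25 for miR-17~92, the smallest possible, and p = 0.75 for miR-106b~25. The share of each member in its cluster was compared by the exact permutation test, and all 10 adjusted p-values were at least 0.714. MiR-25-3p made up 57.3, 56.1 and 53.9% of the miR-106b~25 counts in control and 59.0, 57.5 and 57.0% in BDNF libraries. This share was higher in 3 of 3 pairs, with overlapping conditions (exact permutation test, unadjusted p = 0.2). The share of miR-93-5p was 31.0 ± 2.6% in control and 29.2 ± 1.1% in BDNF libraries (SD, n = 3 each) and lower in 3 of 3 pairs (exact permutation test, unadjusted p = 0.4).

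The largest difference in these hairpins was found on an arm below the filter. MiR-25-5p, the minor arm of miR-25 at chr12:22156690-22156711 (minus strand), is shown with its partner miR-25-3p, and it was singled out after its values had been seen.
miR-25-5p: aGGCGGAGacacgggcaauugc
miR-25-3p: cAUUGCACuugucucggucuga

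MiR-25-5p had 73, 78 and 74 counts in the control libraries and 40, 45 and 55 counts in the BDNF libraries, so that all BDNF libraries lay below all control libraries. With no filter, this held for 3.39% of the 649 miRNAs. Counting error alone was described by exact Poisson 95% intervals. For the closest counts, the lowest control and the highest BDNF count, these were 57.2 to 91.8 and 41.4 to 71.6 and overlapped. Overlap between the closest counts is not a test of the difference between conditions. Normalized RPM were 6.72 ± 0.28 in control and 4.02 ± 0.30 in BDNF libraries (SD, n = 3 each), and the ratios within pairs were 0.524, 0.630 and 0.646.

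In edgeR's quasi-likelihood test without the filter, the log2 fold change of miR-25-5p was -0.73 (SE 0.17), with an unadjusted p of 0.0022, the 2nd smallest of 649, and an adjusted p of 0.702. An unadjusted p below 0.05 was found for 2.31% and an adjusted one for 0.0% of the 649 miRNAs. Adding the replicate block without a filter gave an adjusted p of 0.0157, 3.08% of the 649 miRNAs then being called and 13.6% having an unadjusted p below 0.05. This was the only 1 of 13 settings that called miR-25-5p. With the block and a filter of 1 or 5 RPM, the adjusted p was 0.180 and 0.0953, and DESeq2 without a filter gave 0.955 without and 0.538 with the block. The log2 fold change itself lay between -0.64 and -0.79 in all 13.

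The abundant partner, miR-25-3p, was at 3118, 3533 and 3334 normalized RPM in control and 3422, 3395 and 3231 in BDNF libraries. Its conditions overlapped, and its log2 fold change of 0.01 had a 95% interval of -0.21 to 0.23. The log2 5p/3p ratio of miR-25 was -8.95 ± 0.15 in control and -9.70 ± 0.15 in BDNF libraries (SD, n = 3 each; exact two-sided permutation test, p = 0.1, the smallest possible). As miR-25-5p was singled out by its values and miR-25-3p changed little, this ratio repeats that difference and is not separate support. MiR-25-5p amounted to 0.108 to 0.225% of the miR-25 counts, so the miR-25 total was set by miR-25-3p.

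Of the other minor arms, miR-17-2-3p was higher in normalized RPM after BDNF in 3 of 3 pairs, and all BDNF libraries lay above all control libraries at 23.3, 25.5 and 23.5 against 23.0, 18.8 and 18.4 normalized RPM, as for 3.57% of tested miRNAs. In RPM by library size alone it was lower in pair 1, at 22.8 in control and 21.6 in BDNF replicate 1, and the conditions overlapped. The log2 fold change was 0.26 (SE 0.13), with an unadjusted p of 0.091 in edgeR's quasi-likelihood test. The block gave an unadjusted p of 0.038, as 7.74% of tested miRNAs were below 0.05 and higher in that fit, and the adjusted p was 0.227. MiR-17-1-3p was at 19.6, 24.3 and 24.3 normalized RPM in control and 18.1, 22.0 and 23.4 in BDNF libraries. The log2 ratio of miR-17-1-3p to miR-17-2-3p differed by -0.37 (exact two-sided permutation test, p = 0.3) and was lower in 3 of 3 pairs. This ratio was chosen after the data had been seen.

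**Figure D5:**
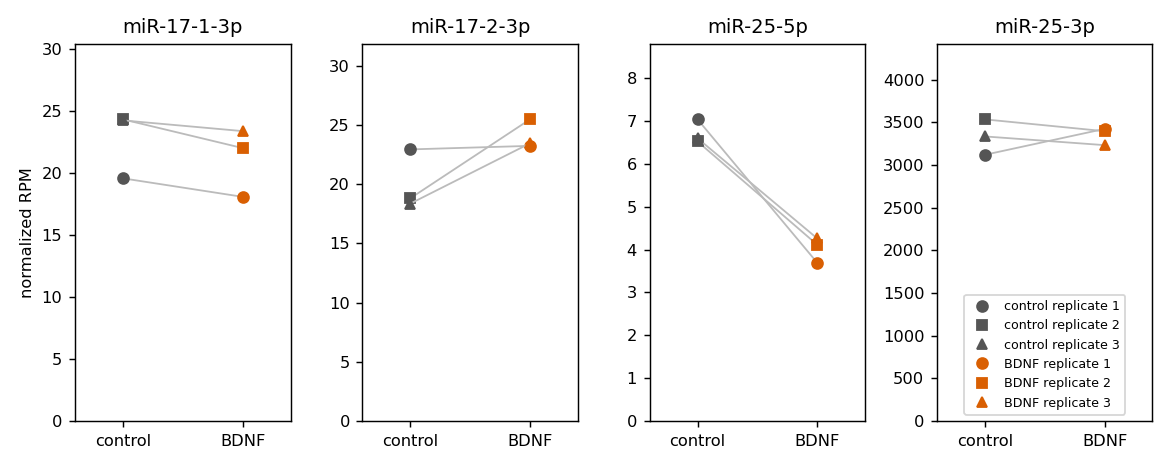
Normalized RPM of miR-17-1-3p, miR-17-2-3p, miR-25-5p and miR-25-3p in control (grey) and BDNF (orange) libraries, with lines joining the same replicate number and each vertical axis starting at 0. MiR-25-5p is lower after BDNF in each pair, with means of 6.72 ± 0.28 and 4.02 ± 0.30, at a level far below that of miR-25-3p.

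The mean profile of the members of each cluster over the 6 libraries was last compared with the profiles of the 326 tested miRNAs outside the clusters. The measure was the root mean square difference of centred log2 normalized RPM. MiR-30e-5p was most like both, at 0.032 for miR-17~92 and 0.030 for miR-106b~25, where the median over the 326 miRNAs was 0.193 and 0.188. MiR-30c-2-3p and miR-26a-5p followed for miR-17~92, at 0.039 and 0.049, and miR-22-5p and miR-30c-2-3p for miR-106b~25, at 0.036 and 0.040. The members themselves lay at 0.043 (miR-20a-5p) to 0.164 (miR-19a-3p) from the miR-17~92 mean. From the miR-106b~25 mean they lay at 0.046 (miR-25-3p) to 0.100 (miR-93-5p). All members thus lay below the medians over the 326 miRNAs. Ranked by closeness, the miR-17~92 members ran from place 3 (miR-20a-5p) to 139 (miR-19a-3p). Those of miR-106b~25 ran from place 5 (miR-25-3p) to 49 (miR-93-5p). No member was as close to its own cluster mean as miR-30e-5p, the closest picked from 326, and the mean does not stand for each member. All of these profiles come from the same 6 libraries and share their normalization.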

How the data were processed

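Small RNA was sequenced from 3 control and 3 BDNF-treated rat cortical cultures, grouped by the sample labels; the methods place all libraries in a single lane. Per the methods, the authors trimmed adapters and filtered quality with Fastx-Toolkit, removed reads shorter than 15 nt and assigned the rest to miRBase v21 rat miRNAs with Miraligner, allowing 1 mismatch and 3 nt of trimming or addition, so that counts sum over isomiRs. The authors deposited raw counts for 649 mature miRNAs per library. Tool versions, a genome build and the rule for reads that fit more than 1 miRNA are not given in the sources used here. The mature sequences and coordinates are from RefSeq (GRCr8).

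RPM were computed here from the sum of all counts in a library, and normalized RPM were divided by the TMM factor (0.928 to 1.085) as well. Where the mean of either condition reached 10 RPM, a miRNA was tested with edgeR 4.0.16 (R 4.3.3), using TMM normalization, the quasi-likelihood test and Benjamini-Hochberg adjustment over all 336 tested. Arm ratios were fitted with limma 3.58.1 after adding 0.5 to the counts. Single values were compared with exact two-sided permutation tests. Intervals are 95% and, for counts, cover counting error only, as PCR copies were not marked.

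The replicate numbers of the labels were checked for pairing. Deviations from the condition means correlated between same-numbered libraries at 0.81, 0.49 and 0.89, so the numbers pair the samples. The methods name edgeR but give no design, so the fit without a block was taken as the main one and the replicate block as an alternative. The main fit and the exact permutation tests thus leave the pairing out, and differences between replicate numbers enter their error. For miR-17-5p, the SE of the log2 fold change was 0.13 without and 0.07 with the block. No replicates of a condition agreed within sampling noise. P-values measure the spread between these cultures. Other alternatives were DESeq2 1.42.0, other normalizations and filters, and leaving out each library. The miRNAs named are the members, the other arms of their hairpins, their seed relatives and the 3 tested miRNAs with the most similar profile per cluster. The members and lists were chosen with earlier results of these data known. Isomers and precursor levels were not analysed here.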

Additional observations from a re-analysis of the deposited data

How the results depend on the processing

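No member passed an adjusted threshold under the alternatives fixed at the start, and the number of adjusted calls over all tested miRNAs stayed at 0 in each of them. The number of miRNAs with an unadjusted p below 0.05 in edgeR's quasi-likelihood test was 10. It was 6 with library size alone, 6 with a filter of 50 RPM and 12 with DESeq2. Leaving out 1 library gave 3 (without control replicate 2) to 32 (without control replicate 1), with 6 without control replicate 3 and 5 without BDNF replicate 2. Fitting the replicate number as a block, by which the samples are paired, gave 69. Among the members, other arms and seed relatives past the filter, the block changed only the unadjusted call of miR-17-2-3p. Without a filter, it changed the adjusted call of miR-25-5p (edgeR's quasi-likelihood test, adjusted p = 0.0157).

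Leaving out 1 library turned the sign of differences close to 0. The log2 ratio of the clusters ranged from -0.0257 to 0.0460, being negative without BDNF replicate 1, the spread within miR-17~92 from -0.0336 to 0.0737 and that within miR-106b~25 from -0.0187 to 0.0448. Log2 fold changes ranged from -0.119 to 0.0851 for miR-19a-3p, -0.0546 to 0.0686 for miR-92a-3p, -0.0317 to 0.0344 for miR-106b-3p, -0.0103 to 0.0544 for miR-25-3p, -0.350 to 0.0170 for miR-93-3p, -0.0375 to 0.878 for miR-32-5p, -0.0450 to 0.0324 for miR-363-3p and -0.118 to 0.169 for miR-92b-3p. RLE normalization and DESeq2 each turned miR-92a-3p to 0.0068, and turned miR-363-3p to 0.0039 and 0.0041. Upper-quartile normalization gave 0.018 for miR-19a-3p, 0.024 for miR-92a-3p and 0.020 for miR-363-3p, and the 50 RPM filter 0.0019, 0.012 and 0.0084. Library size alone gave -0.013 for miR-106b-3p, -0.014 for miR-25-3p and -0.014 for miR-92b-3p. The cause of these turns was not tested. Depth limits the minor arms, of which 5 had at most 78 counts in a library, but not the members.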
